A study of Mus musculus with 18 samples.

Results

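The genes described here are the collagen chains of the mouse other than those of the cartilage fibril. They were taken from the deposited expression table as every protein-coding gene whose symbol is Col, a number, a and a number, without Col2a1, Col9a1, Col9a2, Col9a3, Col11a1 and Col11a2. This left 38 of the 44 collagen genes in a table of 43346 genes. Expression was deposited as RPKM, the reads of a gene per kilobase of its summed exons and per 1000000 reads in genes. Of the 38 collagens, 26 had at least 10 reads in at least 3 libraries and were tested, and the other 12 are given by their reads.

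The samples were MC3T3-E1 subclone 4 cells at passage 9, a clonal pre-osteoblast line from the calvaria of C57BL/6 mice, so every value comes from a single clone in culture. Both arms spent 3 days in osteogenic medium, which holds ascorbic acid and β-glycerol phosphate. The control arm received 0.25% DMSO, and the other arm 2.5 µM EPZ6438, an inhibitor of the methyltransferase EZH2. The labels do not say whether the EPZ6438 arm also held DMSO. The RNA data comprise 3 libraries per arm. Chromatin immunoprecipitation of H3K27me3, the repressive mark that EZH2 writes, and of H3K4me3, a mark of active gene starts, is represented by 1 merged peak list per mark and arm. The labels do not state that the 3 samples of an arm were separate cultures, so p-values measure no more than the spread among these libraries, part of which may be technical.

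Collagens are trimers of chains wound into a triple helix, and they differ in what they build. Fibrillar collagens form the cables of bone, skin and tendon, and type I collagen, made of the Col1a1 and Col1a2 chains, is the main protein of bone matrix. Network collagens form sheets such as the basement membrane, FACIT collagens sit on the surface of fibrils, beaded filaments of type VI collagen surround cells, transmembrane collagens are anchored in the cell membrane, and multiplexins carry interrupted helices with attached sugar chains. Osteoblasts need ascorbic acid to hydroxylate and secrete these chains.

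The libraries held 18807156 to 25365513 reads in genes, and 3 reads, taken as the floor of detection for counting error, corresponded to 0.118 to 0.160 reads per 1000000. The pre-osteoblast markers Runx2, Sp7, Alpl and Ibsp were present in all 6 libraries. They summed to 268 to 307 RPKM with DMSO and 739 to 764 RPKM with EPZ6438, and 4 of 4 rose, against 3.8% of all genes tested. Markers of other cell types were low apart from smooth muscle genes and, at a far lower level, chondrocyte genes. The chondrocyte genes summed to 9.50 to 11.7 RPKM with DMSO and 14.8 to 16.3 RPKM with EPZ6438. Endothelial markers summed to 0.175 to 0.328 RPKM with DMSO and 0.269 to 0.617 with EPZ6438, with Cdh5 and Kdr listed at 0, and 0 of 1 tested gene, Esam, passed. Epithelial markers summed to 0.469 to 0.584 and 0.487 to 0.629 RPKM, with Epcam and Krt8 listed at 0, and 0 of 1 tested gene, Krt14, passed. Blood cell markers summed to 0.981 to 1.27 and 1.26 to 1.80 RPKM, most of it Cd68, and 0 of 2 tested genes passed. Adipocyte markers summed to 0.345 to 0.616 and 0.161 to 0.268 RPKM, and none reached the read minimum. Smooth muscle markers summed to 2168 to 2310 RPKM with DMSO and 1635 to 1658 with EPZ6438. Most of this was Acta2, with a DMSO mean of 2097 RPKM, then Tagln (143) and Lmod1 (12.4). The DMSO means of Des, Cnn1, Myh11 and Myocd were 0.811, 0.135, 0.0141 and 0 RPKM. Of 5 tested smooth muscle genes, Des rose by 0.88 (adjusted p = 0.0440, limma) and Acta2 fell by 0.47 on the log2 scale (adjusted p = 0.0229). In bulk RNA, fewer cells of a type and less RNA per cell cannot be told apart.

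The question put to the RNA was which collagen chains changed when EZH2 was inhibited during early osteogenic culture. Col15a1 and Col23a1 rose, no collagen fell, and the other 24 tested collagens did not pass an adjusted p of 0.05 in limma over all 14213 genes tested. In the same fit 7.04% of all genes passed, 3.8% as risen and 3.24% as fallen, so 2 of 26 collagens is near the background. The median log2 difference of the 26 collagens was 0.03, against -0.03 for all genes tested, and 13 were positive and 13 negative. Differences ran from -0.67 to 1.68, and 13 of the 26 were within 0.2 of 0. The arms did not overlap for 6 collagens, of which 4 were higher and 2 lower with EPZ6438, and 26.7% of all genes showed such a separation. All log2 differences are EPZ6438 minus DMSO on the log2(RPKM + 0.1) scale, which understates the change of low genes.

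**Figure D1:**
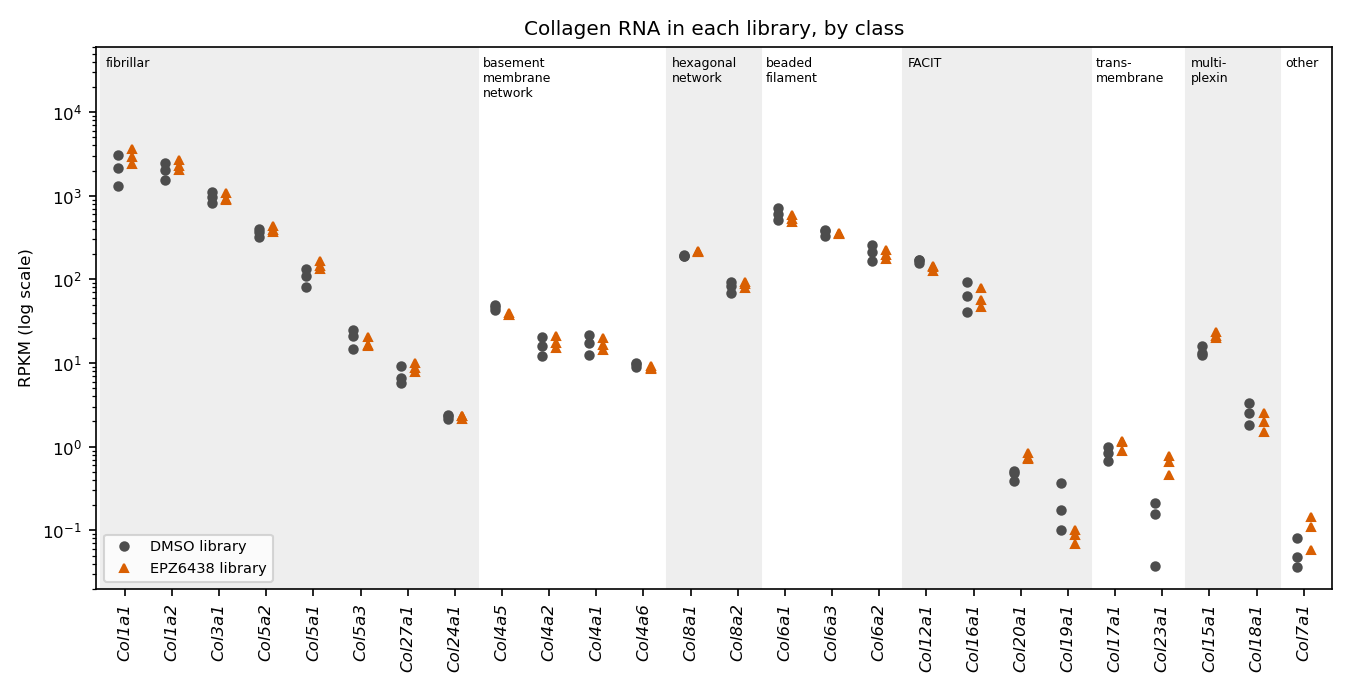
RPKM of each tested collagen in each of the 6 libraries (log axis), grouped by class, with DMSO libraries as grey circles and EPZ6438 libraries as orange triangles. Levels span from about 0.0362 RPKM (Col7a1) to 3583 RPKM (Col1a1), and the arms are apart for Col15a1 and Col23a1 while they overlap for all 8 fibrillar genes.

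Col23a1, a transmembrane collagen whose ectodomain can be shed, was the collagen with the largest difference of the 26. It lies on chromosome 11 at 51289920 to 51583918 (mm10, ENSMUSG00000063564). Its level was 0.0371, 0.157 and 0.213 RPKM in DMSO replicates 1, 2 and 3, and 0.464, 0.650 and 0.766 RPKM in the EPZ6438 replicates. All EPZ6438 libraries were above all DMSO libraries, and DMSO replicate 1 was the lowest of the 6. The means were 0.136 ± 0.0899 and 0.627 ± 0.152 RPKM (SD, n = 3 each), a log2 difference of 1.68 (SE 0.34, 95% interval 0.88 to 2.49, adjusted p = 0.0309, limma). These levels rest on few reads, 4, 20 and 31 with DMSO and 56, 90 and 88 with EPZ6438.

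Col15a1, a multiplexin of basement membrane zones from which the fragment restin is cut, rose from a higher level. It lies on chromosome 4 at 47208161 to 47313167 (mm10, ENSMUSG00000028339). It measured 12.5, 13.2 and 16.0 RPKM with DMSO and 19.9, 23.6 and 20.8 RPKM with EPZ6438. The arms did not overlap. The means were 13.9 ± 1.86 and 21.4 ± 1.95 RPKM (SD, n = 3 each), a log2 difference of 0.62 (SE 0.12, 95% interval 0.34 to 0.90, adjusted p = 0.0259, limma). Both calls were sensitive to single libraries. Without DMSO replicate 2 or EPZ6438 replicate 1, 2 or 3, the adjusted p was 0.129, 0.0640, 0.0993 and 0.104 for Col15a1 and 0.0946, 0.0607, 0.107 and 0.125 for Col23a1, with differences of 0.55 to 0.67 and 1.55 to 1.86.

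**Figure D2:**
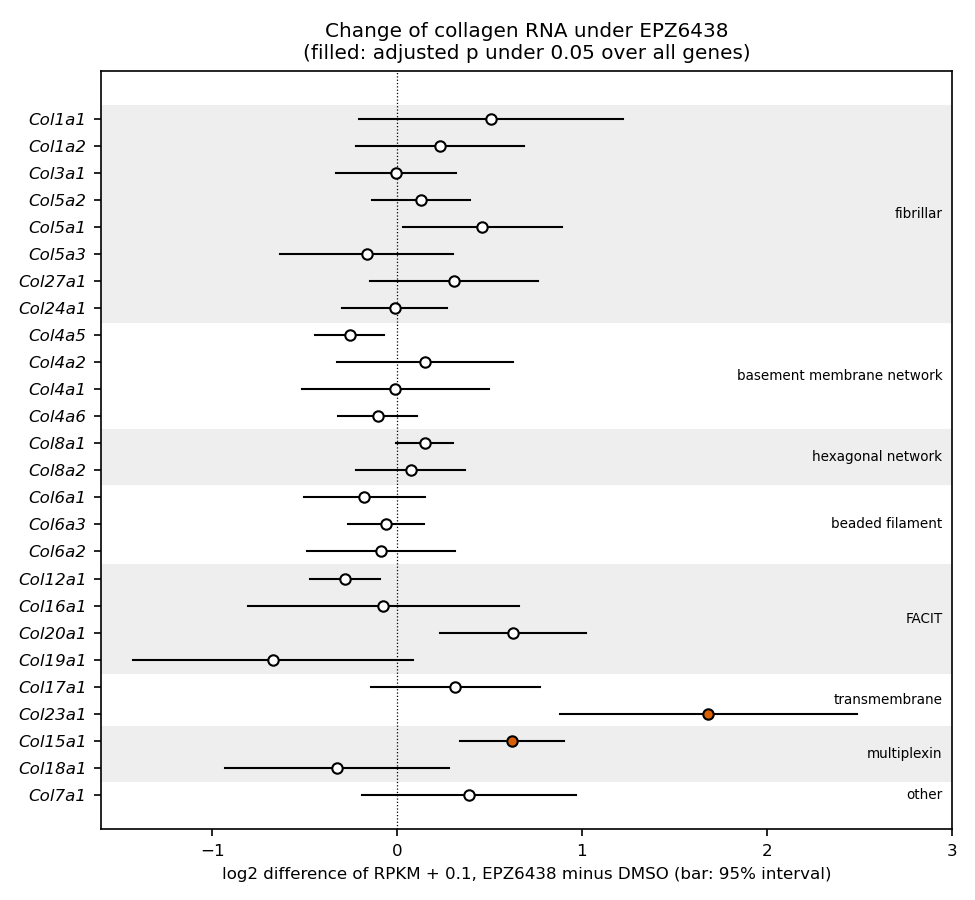
Log2 difference of each of the 26 tested collagens between EPZ6438 and DMSO (x axis, log2(RPKM + 0.1) scale) with its 95% interval, by class, filled in orange where the adjusted p was under 0.05. Col23a1 (1.68) and Col15a1 (0.62) are the filled points, and the intervals of 20 others cross 0.

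The start regions of these genes differ in base composition, and 4 are shown because they carry the comparison between the genes that rose and abundant fibrillar genes. Col23a1 and Col15a1 are those that rose, with 18 and 8 CpG dinucleotides. Col5a1 has 28 and Col3a1 has 0, where the collagens with an entry ran from 0 to 31, and both were expressed in every library. The letters are the 250 bases before the RefSeq start (GRCm38.p6, the same build as mm10), in the direction of the gene, all on the plus strand, with CpG dinucleotides in capitals. They lie at chr11:51289670-51289919 for Col23a1, chr4:47207762-47208011 for Col15a1, chr2:27886175-27886424 for Col5a1 and chr1:45311288-45311537 for Col3a1.
Col23a1: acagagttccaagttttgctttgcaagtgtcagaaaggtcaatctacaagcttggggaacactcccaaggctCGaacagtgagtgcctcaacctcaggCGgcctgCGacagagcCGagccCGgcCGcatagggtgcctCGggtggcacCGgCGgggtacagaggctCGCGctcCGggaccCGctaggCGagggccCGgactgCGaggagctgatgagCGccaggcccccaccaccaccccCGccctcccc
Col15a1: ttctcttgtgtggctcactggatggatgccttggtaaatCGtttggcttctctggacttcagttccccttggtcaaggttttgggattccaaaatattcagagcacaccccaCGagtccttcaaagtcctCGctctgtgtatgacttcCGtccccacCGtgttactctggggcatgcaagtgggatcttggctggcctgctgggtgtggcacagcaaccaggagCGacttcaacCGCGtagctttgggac
Col5a1: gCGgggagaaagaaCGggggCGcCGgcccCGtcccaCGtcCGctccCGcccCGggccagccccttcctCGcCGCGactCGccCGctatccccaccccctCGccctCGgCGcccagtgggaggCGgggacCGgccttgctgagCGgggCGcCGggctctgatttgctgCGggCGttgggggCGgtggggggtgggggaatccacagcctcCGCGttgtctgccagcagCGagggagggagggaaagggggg
Col3a1: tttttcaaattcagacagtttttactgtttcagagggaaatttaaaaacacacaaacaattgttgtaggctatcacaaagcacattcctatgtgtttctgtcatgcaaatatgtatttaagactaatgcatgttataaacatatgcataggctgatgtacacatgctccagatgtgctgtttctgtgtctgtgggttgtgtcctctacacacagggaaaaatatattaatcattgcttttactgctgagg
The table held an entry for 31 of the 38 collagens. No entry was found for Col1a1, Col4a3, Col5a2, Col12a1, Col14a1, Col22a1 and Col26a1. The median number of CpG dinucleotides in the 250 bases was 10 for the 31 collagens and 6 for all 32851 entries. It was 15 for the 15 collagens with an H3K4me3 peak near a gene end in either arm and 7.5 for the 16 without. The letters TATAAA were found on either strand in 4 of the 31 collagens (12.9%), Col3a1 among them, against 12.4% of all entries. CCAAT was found in 11 (35.5%, against 33.8%) and GGGCGG in 18 (58.1%, against 32.7%). Such matches are a description of these windows.

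Fibrillar collagens carried most of the collagen RNA. The 38 collagens took 5.18%, 6.72% and 8.16% of all reads with DMSO and 6.66%, 8.62% and 7.38% with EPZ6438. The fibrillar genes alone took 5.29% ± 1.35 (SD, n = 3) with DMSO and 6.26% ± 0.936 with EPZ6438, and the arms overlapped. All 8 fibrillar genes were tested and none passed, with a median log2 difference of 0.18.

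The 3 marker chains of matrix-producing cells were abundant in every library. Col1a1, the major chain of type I collagen (chromosome 11, 94936224 to 94953042, ENSMUSG00000001506), measured 1320.3, 2149 and 3039 RPKM with DMSO and 2383, 3583 and 2899 RPKM with EPZ6438. Its arms overlapped, and the highest DMSO library was 2.30 times the lowest. The log2 difference was 0.51 with a 95% interval of -0.21 to 1.22 (adjusted p = 0.410, limma), so a rise of over 2-fold or a small fall are both within the interval. Col1a2, the other chain (chromosome 6, 4504814 to 4541543, ENSMUSG00000029661), measured 1545, 2032 and 2486 RPKM against 2054, 2703 and 2287 RPKM. Its log2 difference was 0.23 (-0.22 to 0.69, adjusted p = 0.551). Col3a1, the chain of type III collagen found with type I in soft tissue (chromosome 1, 45311538 to 45349706, ENSMUSG00000026043), measured 819.9, 974 and 1114 RPKM against 890.3, 1072 and 920.3 RPKM. Its log2 difference was -0.01 (-0.33 to 0.32, adjusted p = 0.986), and its sign changed under the median-of-ratios scaling (0.03).

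Type V collagen regulates the diameter of type I fibrils. Its Col5a1 chain measured 81.8, 111 and 135 RPKM with DMSO and 131, 166 and 146 RPKM with EPZ6438, and only the highest DMSO library reached into the EPZ6438 range. The difference was 0.46 (0.03 to 0.89, unadjusted p = 0.0393, adjusted p = 0.211, limma). Its partner Col5a2 measured 320.3, 364 and 406 RPKM against 369.7, 434 and 385 RPKM (0.13, adjusted p = 0.577). Col5a3 (14.6 to 24.6 RPKM with DMSO, 15.9 to 20.6 with EPZ6438), Col27a1 (5.73 to 9.31 and 7.72 to 10.1) and Col24a1 (2.15 to 2.36 and 2.14 to 2.34) were lower, and each had overlapping arms.

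The ratio of 2 chains within a library does not depend on how that library was scaled, and it was taken for 4 pairs that enter the same trimers. Both genes of a pair are per their own summed exon length, so a ratio is compared between libraries and not read as chains per trimer. Col5a1 over Col5a2 was 0.256, 0.305 and 0.333 with DMSO and 0.356, 0.382 and 0.380 with EPZ6438, without overlap. Col4a1 over Col4a2 was 1.01, 1.08 and 1.06 with DMSO and 0.940, 0.942 and 0.935 with EPZ6438, again without overlap. Col1a1 over Col1a2 was 0.855, 1.06 and 1.22 against 1.16, 1.33 and 1.27, and Col6a1 over Col6a2 was 3.05, 2.83 and 2.73 against 2.76, 2.62 and 2.70, both overlapping. The exact two-sided permutation p was 0.1 for the first pair of ratios and 0.2 for the other 2, and 0.2 for each after adjustment over the 4. With 3 libraries against 3 no ratio can go below 0.1, so this test cannot call a difference at 0.05.

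**Figure D3:**
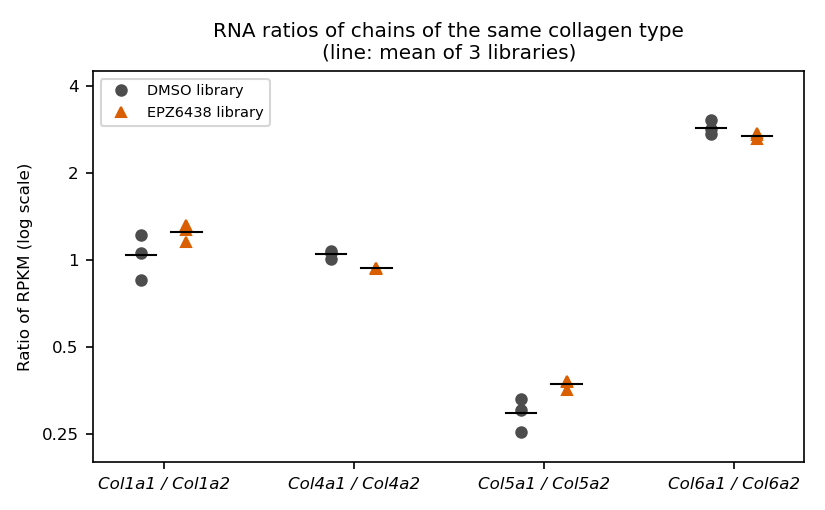
Ratio of RPKM between partner chains in each library (y axis, log scale) for the 4 pairs, with DMSO libraries as grey circles, EPZ6438 libraries as orange triangles and lines for the mean of 3. The arms are apart for Col5a1/Col5a2 and Col4a1/Col4a2 and overlap for Col1a1/Col1a2 and Col6a1/Col6a2.

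Of the basement membrane network, type IV collagen, 4 of 6 chains were tested and none passed (median -0.06). Col4a5, the most abundant per length, measured 42.5, 48.8 and 47.2 RPKM with DMSO and 37.7, 40.0 and 38.02 RPKM with EPZ6438. All EPZ6438 libraries were below all DMSO libraries. The difference was -0.26 (-0.44 to -0.07, adjusted p = 0.113, limma), and without DMSO replicate 1 it was -0.31 with an adjusted p of 0.0453. Its neighbour on the X chromosome, Col4a6, measured 8.94 to 9.89 RPKM against 8.58 to 9.32 RPKM. Col4a1 and Col4a2, the chains of most basement membranes, measured 12.3, 17.3 and 21.6 against 14.1, 19.7 and 16.3 RPKM, and 12.2, 16.0 and 20.4 against 15.0, 20.9 and 17.4 RPKM. These genes start head to head, and their annotated spans overlap only from 11312805 to 11312826 on chromosome 8. Their summed exons are 6818 and 6619 bp. As the strand setting of the counting is not given in the sources used here, reads in this short overlap cannot be told apart.

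The hexagonal network collagen Col8a1, a type VIII chain of vessel walls and corneal membrane, was steady within each arm. It measured 193, 195 and 189 RPKM with DMSO and 211, 216 and 212 RPKM with EPZ6438. Every EPZ6438 library was above every DMSO library, yet the difference of 0.15 had an adjusted p of 0.254 (limma). Its partner Col8a2 measured 69.2, 83.7 and 94.1 against 78.7, 92.9 and 87.1 RPKM, with overlap. Col10a1, the chain of hypertrophic cartilage, had 0 reads in 5 libraries and 2 reads in EPZ6438 replicate 2.

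The beaded filament chains of type VI collagen were the most abundant after the fibrillar genes by their share of reads, 0.885% ± 0.1196 with DMSO and 0.821% ± 0.0442 with EPZ6438 (SD, n = 3 each). Col6a1 measured 508, 609.8 and 709 RPKM with DMSO and 489, 588 and 528 RPKM with EPZ6438 (-0.18, 95% interval -0.50 to 0.15, adjusted p = 0.532, limma). Col6a3 (331 to 391 and 349.5 to 355 RPKM) and Col6a2 (167 to 260.2 and 177 to 224 RPKM) also overlapped between arms. The alternative chains of the same trimer had few reads and were not tested. Col6a4 had 1, 6 and 4 reads against 6, 1 and 3, Col6a5 had 1, 0 and 1 against 14, 6 and 0, and Col6a6 had 0 reads in all 6 libraries, which allows up to 3 reads or 0.118 to 0.160 reads per 1000000.

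FACIT collagens took 0.285%, 0.307% and 0.304% of reads with DMSO and 0.252%, 0.247% and 0.252% with EPZ6438, without overlap. Most of this was Col12a1, a long chain on the surface of type I fibrils. Col12a1 measured 169, 173 and 158 RPKM with DMSO and 145, 127 and 139.6 RPKM with EPZ6438. All EPZ6438 libraries were below all DMSO libraries, and the difference of -0.28 (-0.47 to -0.09) had an adjusted p of 0.0922 (limma). Col16a1 varied widely within each arm, at 40.7, 64.0 and 93.8 against 46.8, 78.1 and 57.2 RPKM. Col20a1 was far lower, at 0.482, 0.386 and 0.508 against 0.714, 0.830 and 0.738 RPKM, without overlap (0.63, adjusted p = 0.0754). With a read minimum of 50 in place of 10, Col20a1 had an adjusted p of 0.0422. Col19a1, at 0.1004, 0.176 and 0.366 against 0.0690, 0.102 and 0.0870 RPKM, rested on 10 to 64 reads per library (adjusted p = 0.302). Col22a1, which is found at tissue junctions, had 1, 2 and 1 reads against 16, 26 and 5. It was not among the tested genes, and with every gene that had a read tested, its adjusted p was 0.224. Col14a1 had 0, 2 and 3 reads against 1, 3 and 7.

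The remaining transmembrane and multiplexin genes were low. Col17a1, the collagen of hemidesmosomes, measured 0.673, 0.999 and 0.841 against 0.882, 1.18 and 1.13 RPKM (0.31, adjusted p = 0.426, limma). Col18a1, the source of endostatin, measured 1.84, 2.54 and 3.31 against 1.52, 2.52 and 2.00 RPKM (-0.33, adjusted p = 0.534). Col13a1 had 2 reads in all 6 libraries together and Col25a1 had 1. Among the other collagens, Col7a1, the anchoring fibril chain of skin, measured 0.0362 to 0.0806 against 0.0584 to 0.145 RPKM. Col28a1 had 5, 5 and 12 reads against 0, 2 and 0 (adjusted p = 0.153 with every gene tested), and Col26a1 had 2, 0 and 7 against 8, 12 and 1. Col4a3 and Col4a4, the chains of the kidney filter, had at most 4 and 5 reads in a library.

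The collagens moved together between the libraries of an arm. Of the 26 tested collagens, 22 (84.6%) were lowest in DMSO replicate 1 among the DMSO libraries, against 37.7% of all genes tested. DMSO replicate 3 held the highest value for 20 (76.9%, against 34.9%). Among the EPZ6438 libraries, 22 collagens (84.6%, against 32.6%) were lowest in replicate 1 and 24 (92.3%, against 31.3%) highest in replicate 2. The median SD of the log2 values within an arm was 0.25 for the collagens and 0.19 for all genes with DMSO, and 0.15 and 0.13 with EPZ6438. Genes of the same libraries are not independent of each other, and what sets these libraries apart was not tested. With both libraries numbered 1 left out, an alternative chosen after seeing the data, Col23a1 passed (1.51, adjusted p = 0.0341, limma) and Col15a1 did not (0.60, adjusted p = 0.0675).

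**Figure D4:**
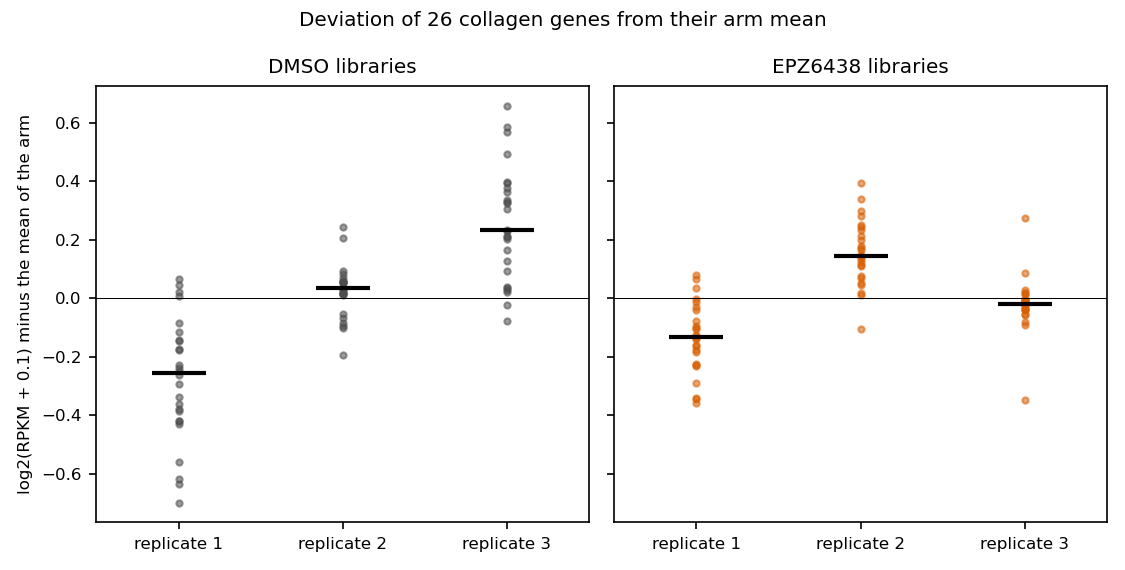
Deviation of each tested collagen from the mean of its own arm in each library (y axis, log2(RPKM + 0.1)), 1 point per gene, grey for DMSO and orange for EPZ6438, with a bar at the median over genes. Most collagens lie below 0 in replicate 1 of both arms, above 0 in DMSO replicate 3 and above 0 in EPZ6438 replicate 2.

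The histone marks were read as peaks within 2.5 kb of either annotated gene end. The lists give starts and ends without heights, and 1 list per mark and arm leaves no replicates, so the counts carry no test. An H3K27me3 peak was near 12 of 38 collagens with DMSO, against 31.1% of protein-coding genes, and near 2 with EPZ6438, against 6.82%. Both shares of the collagens, 31.6% and 5.26%, are near the background. The H3K27me3 lists themselves shrank from 143399 to 20764 peaks, covering 89.4 and 11.6 Mb. An H3K4me3 peak was near 14 collagens with DMSO, against 39.5% of protein-coding genes, and near 18 with EPZ6438, against 43.6%.

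The 12 collagens with an H3K27me3 peak in DMSO were mostly those with little RNA. Of them, 8 did not reach the read minimum, namely Col4a3, Col4a4, Col6a4, Col6a5, Col14a1, Col22a1, Col25a1 and Col26a1. The share that did, 33.3%, is near the 33.6% of all protein-coding genes with such a peak. The 4 that did were Col15a1, Col20a1, Col23a1 and Col27a1, with log2 differences of 0.62, 0.63, 1.68 and 0.31. Of these, 2 rose, and of the 22 tested collagens without such a peak, none rose. Among all tested protein-coding genes 10.3% with an H3K27me3 peak in DMSO rose, and 2.83% without. The peaks of Col15a1 and Col23a1 begin 2227 and 2177 bp inside the annotated gene end. With a window of 1 kb neither has such a peak, and of the 4 only Col27a1, which did not pass, keeps one. The peaks of Col20a1 lie at its far end, beyond the gene, at 181018832 to 181019017 and 181019799 to 181020474 on chromosome 2, and not at its start. An end of Chrna4 also lies within 2.5 kb of these peaks. Col4a3 and Col4a4 share the peak at 82584944 to 82585205 on chromosome 1, and the other Col4a3 peaks are also near an end of Mff. Which gene such peaks belong to was not tested. With EPZ6438 the 2 collagens with an H3K27me3 peak near a gene end were Col20a1 and Col26a1. Near the gene ends 10 of 38 thus had the mark in DMSO only, against 24.7% of protein-coding genes. Over the whole gene 12 collagens had an H3K27me3 peak with EPZ6438 (31.6%, against 13.7% of protein-coding genes). That window grows with the length of the gene, and gene length was not matched. With a fixed window of 5 kb at the gene ends, 4 collagens had such a peak (10.5%, against 11.2%).

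At Col23a1 both marks lay near the start with DMSO. An H3K4me3 peak covered the start at 51289850 to 51290161, and an H3K27me3 peak of 1165 bp lay at 51292097 to 51293261, 2177 to 3341 bp into the gene. With EPZ6438 the H3K4me3 peak was at 51289861 to 51290245 and no H3K27me3 peak was listed near either end. At Col15a1 an H3K27me3 peak lay 2376 to 2664 bp into the gene with DMSO (47210388 to 47210676) and none was listed with EPZ6438. An H3K4me3 peak just after its start (47208059 to 47208301) was listed with EPZ6438 and not with DMSO. In the start sequences printed above, Col23a1 holds 18 CpG dinucleotides and Col15a1 holds 8.

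Col27a1, a fibrillar chain with a short helix, was the other collagen with both marks at the same end in DMSO. On chromosome 4, its H3K27me3 peak of 910 bp lay before the RefSeq start at 63214007 to 63214916, and its H3K4me3 peak after it at 63215698 to 63216055. With EPZ6438 the H3K4me3 peak spanned the start from 63215341 to 63216236. Both marks at the same end were listed for 2 of 38 collagens with DMSO and 0 with EPZ6438, against 9.13% and 0.368% of protein-coding genes.

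H3K4me3 marked most of the abundant collagens. It was listed in both arms near 14 collagens (33% of protein-coding genes), in EPZ6438 only near 4 (10.5%), in DMSO only near 0 (6.49%) and in neither arm near 20 (49.9%). The 14 were Col1a1, Col1a2, Col3a1, Col5a1, Col5a2, Col6a1, Col6a2, Col6a3, Col8a1, Col8a2, Col12a1, Col16a1, Col27a1 and Col23a1. Of these, Col27a1 and Col23a1 were low, at DMSO means of 7.20 and 0.136 RPKM. All 14 reached the read minimum, as did 95.4% of protein-coding genes with the mark in both arms. The 4 were Col15a1, Col5a3, Col4a1 and Col4a2, of which the last 2 share 1 peak at 11312882 to 11313202 on chromosome 8. Col4a5, at 37.7 to 48.8 RPKM, and Col4a6 had no H3K4me3 peak near either end in either arm.

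The listed H3K4me3 intervals were wider with EPZ6438. Across the 14 collagens the median length covered near the gene ends was 454.5 bp with DMSO and 1221 bp with EPZ6438, and it was larger in 14 of 14. For the 7275 protein-coding genes with the mark in both arms, it was 464 and 873 bp, and larger in 87.8%. The EPZ6438 list as a whole had fewer but wider peaks, 16216 with a median width of 401 bp against 40113 with 212 bp. At Col1a1 a single interval of 2529 bp (94936332 to 94938860) stood where the widest of 3 DMSO intervals had 547 bp. At Col8a2 a 1663 bp interval replaced separate ones. Widths depend on how the peaks were called and merged, and whether the difference lies in the calling was not tested.

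**Figure D5:**
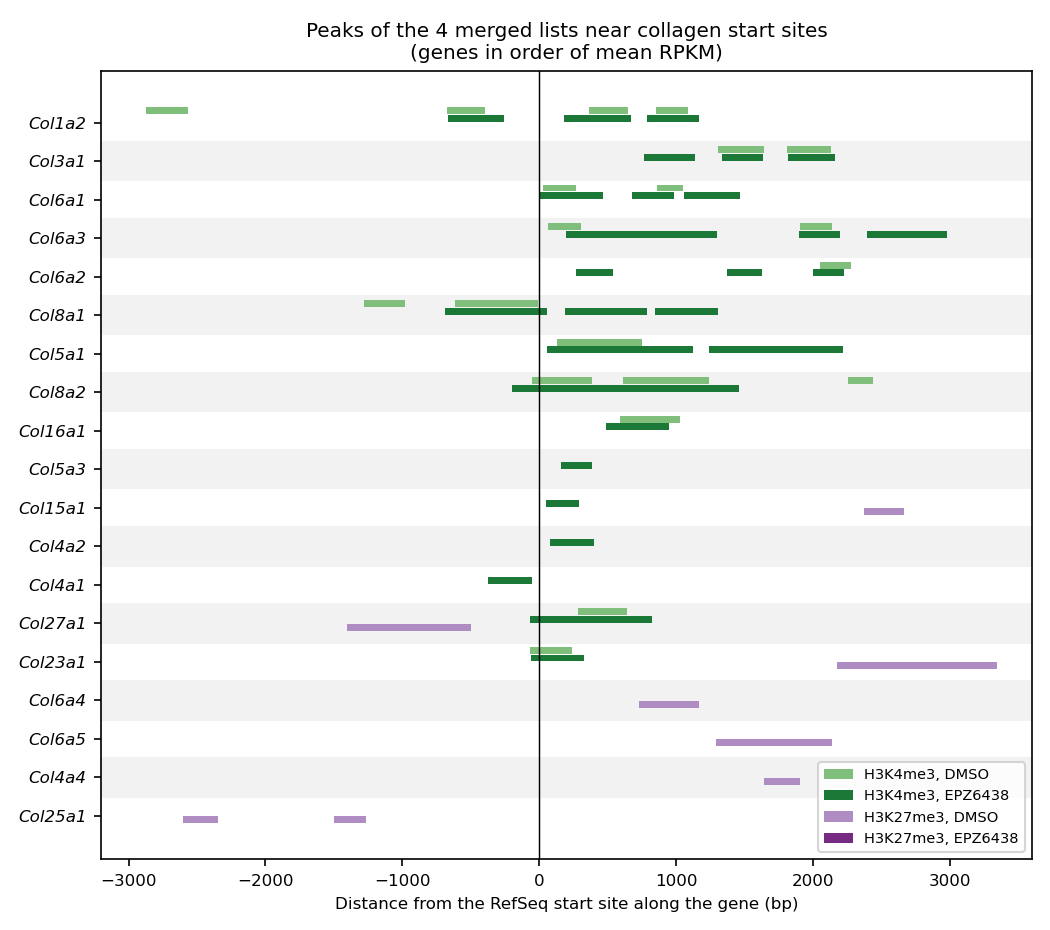
Listed peaks of both marks and arms along each collagen with a RefSeq start and a peak near it (x axis, distance from the start in bp along the gene), one row per gene in order of mean RPKM. H3K4me3 (green) clusters around the starts of abundant genes, H3K27me3 with DMSO (light purple) lies near Col15a1, Col27a1, Col23a1 and low genes, and no H3K27me3 peak with EPZ6438 falls in this view.

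The enzymes and partners that collagens need were taken as lists and read in the same fit, where the median of all genes was -0.03. In that fit 3.8% of all genes rose and 3.24% fell, the background for the counts of each list here and below. Of 19 tested genes of chain modification and folding, 3 rose and 1 fell (median 0.20). P4ha2, a catalytic chain of prolyl 4-hydroxylase, rose from 11.8 ± 1.34 to 18.4 ± 0.375 RPKM (SD, n = 3 each), by 0.65 (adjusted p = 0.0123, limma). P4ha3, another catalytic chain of the same enzyme, fell by 0.56 on the log2 scale, from 46.8 ± 4.13 to 31.6 ± 0.480 RPKM (adjusted p = 0.0106). Colgalt2, which adds galactose to hydroxylysine, had 0 reads in each DMSO library and 23, 13 and 17 reads with EPZ6438, at least 6.01-fold higher against a floor of 3 reads per library (adjusted p = 0.0106). Lepre1, a prolyl 3-hydroxylase, was the other that rose (0.49, adjusted p = 0.0256).

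Of 10 tested genes of procollagen export, 2 rose and none fell (median 0.18). Creb3l1, a transcription factor of the endoplasmic reticulum known to act on collagen secretion in osteoblasts, rose from 42.2, 56.9 and 67.3 RPKM to 108, 127 and 119 RPKM, by 1.11 (adjusted p = 0.01001, limma). Sec24d, a coat protein of export vesicles, rose by 0.31 (adjusted p = 0.0365). Of 6 tested genes of procollagen cleavage 1 rose (median 0.50), the propeptidase Tll1, from 2.85 ± 0.111 to 4.69 ± 0.525 RPKM (SD, n = 3 each; adjusted p = 0.0192). Of 6 tested crosslinking genes none passed (median -0.09), and the most abundant, Lox, measured 99.5, 91.4 and 78.0 against 136, 112 and 125 RPKM (0.47, adjusted p = 0.0553). Lox passed under 5 of 15 alternatives, the lowest adjusted p being 0.0286 with median-of-ratios scaling, and 0.0357 without DMSO replicate 1.

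Of 11 tested small proteins and proteoglycans that bind fibrils, 3 fell and none rose (median -0.38). Dcn, decorin, fell from 553 ± 108 to 356 ± 22.8 RPKM (SD, n = 3 each; -0.62, adjusted p = 0.0471, limma). Ogn, osteoglycin, fell from 356 ± 70.8 to 208 ± 20.5 RPKM (-0.76, adjusted p = 0.0304), and Ecm2 from 4.59 ± 0.706 to 2.57 ± 0.312 RPKM (-0.80, adjusted p = 0.0283). Unlike most of the collagens, Dcn and Ogn were highest in DMSO replicate 1 among the DMSO libraries, as were 46.8% of all genes tested.

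Of 7 tested collagen receptors 2 rose and 1 fell (median 0.16). The integrin chains Itga10 and Itga11 rose by 0.62 (adjusted p = 0.00361, limma) and 0.66 (adjusted p = 0.0211), and Itga1 fell by 0.59 on the log2 scale (adjusted p = 0.0326). Of 12 tested basement membrane partners of type IV collagen 1 rose (median 0.18), Sparc, a collagen-binding protein of bone, from 1829 ± 15.4 to 2414 ± 37.8 RPKM (SD, n = 3 each; 0.40, adjusted p = 0.0412). Of 5 tested chondrocyte genes outside the collagens 2 rose (median 0.34), Hapln1 (1.17, adjusted p = 0.00165) and Matn3 (1.65, adjusted p = 0.0193). The chondrocyte markers summed to 9.50 to 11.7 RPKM with DMSO and 14.8 to 16.3 RPKM with EPZ6438, with Acan listed at 0 in all 6 libraries. Sox9 had means of 5.72 RPKM with DMSO and 5.07 RPKM with EPZ6438 and did not pass (adjusted p = 0.642, limma).

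Of the genes named here that passed, 23 were followed through the fits without single libraries, and Lepre1 was not among them. Of the 23, 5 (Alpl, Ibsp, Sp7, Hapln1 and Itga10) also passed without any single library, and 18 did not. Without the library concerned, P4ha2 reached an adjusted p of 0.0546 to 0.0668 and P4ha3 of 0.0522 to 0.0725. For Colgalt2 and Creb3l1, leaving out DMSO replicate 2 or EPZ6438 replicate 3 gave 0.0525 to 0.0541 and 0.0513 to 0.0522, and for Runx2 0.0563 to 0.0576. For Tll1, Itga11, Dcn, Ogn and Acta2 the libraries were DMSO replicate 2 and each EPZ6438 library, with highest adjusted p of 0.0837, 0.0959, 0.170, 0.129 and 0.129. Itga1, Ecm2 and Des also lost their calls without DMSO replicate 1, and Sec24d and Sparc without DMSO replicate 3, with highest values of 0.155, 0.137, 0.166, 0.181 and 0.178. Matn3 lost its call without each of EPZ6438 replicates 1, 2 and 3, at an adjusted p of 0.0540 to 0.0795 (limma).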

How the data were processed

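RNA of 3 DMSO and 3 EPZ6438 samples and 4 merged peak lists were used. The authors deposited expression as RPKM, and each list holds other values deposited as intervals, with neither height nor score, called against that arm's input per the file names. Per the submitters' processing notes, STAR 2.6.1c, Subread, Picard, MACS2, HOMER, DiffBind, FastQC and bcl2fastq were used with mm10. Not given in the sources used here were the role of each, the strand setting, the annotation release, peak thresholds and how samples were merged. RPKM, with gene length plus 1 base, gave whole reads for 100% of values (tolerance 0.001), hence library totals and the minimum of 10 reads in 3 libraries. Floors cover counting error only, since reads without molecular identifiers are not independent molecules.

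EPZ6438 and DMSO were compared with limma 3.58.1 (R 4.3.3; trend, two-sided) on log2(RPKM + 0.1), with Benjamini-Hochberg adjustment over 14213 genes and a threshold of 0.05. Intervals are at 95%. Scripts were tested on simulated data. Peaks counted when at least 1 bp lay within 2.5 kb of a gene end. Python 3.11.15, numpy 2.4.6, pandas 2.3.3 and matplotlib 3.10.9 were used for the rest. Start sequences came from RefSeq. Named were all passing collagens, Col1a1, Col1a2 and Col3a1, the most abundant of each class, members without reads, and of each partner list up to 3 passing genes by adjusted p or else the most abundant. Other collagens, Lepre1, Sox9, the markers at 0 and the smooth muscle genes that did not pass were named after their values were seen. The collagens and the lists were chosen with earlier results of these data known. Alternatives covered the filter, pseudocount, scaling, voom, a replicate block, single libraries, and the window and width of peaks. Of the list symbols, 8 were not found in the table and enter no count. The 37 mitochondrial genes were at 0 and were left out. Groups of 3 were too small for a check of single outlying values. The table held 0 columns of no sample.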

Additional observations from a re-analysis of the deposited data

How the results depend on the processing

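The 2 collagens that passed became 0 without a filter on low values, 1 (Col15a1) at a pseudocount of 0.01 RPKM, 0 to 3 without single libraries (3 without DMSO replicate 1, where Col4a5 passed as lower), and 1 (Col23a1) without both libraries numbered 1, an alternative chosen after seeing the data. The count was 3 with a filter of 50 reads, where Col20a1 passed, and stayed at 2 with pseudocounts of 0.5 or 1 RPKM, scaling by median of ratios, voom and the replicate block. The 1001 genes that passed became 628 without a filter, 323 to 978 without single libraries and 498 without both libraries numbered 1. Without a filter 23146 genes were tested in place of 14213. Without DMSO replicate 1 or 3 the number that passed was 978 or 949, and without any other single library it was 323 to 445. The causes of these changes were not tested. Col3a1 turned from -0.01 to 0.027 when scaled by median of ratios, and without single libraries it was -0.12 to 0.10. Krt14 (0.05) was -0.038 to 0.20 without single libraries. Collagens near H3K27me3 peaks with DMSO numbered 12. With a window of 1 kb they numbered 5 (13.2%, against 17.0% of protein-coding genes), without Col15a1 and Col23a1. With 5 kb they numbered 19 (50%, against 45.6%), over the whole gene 22 (57.9%, against 41.5%) and with peaks of at least 400 bp 7 (18.4%, against 20.6%). With EPZ6438 they numbered 2, and in the same order 1 (2.63%, against 3.65%), 4 (10.5%, against 11.2%), 12 (31.6%, against 13.7%) and 1 (2.63%, against 4.11%). Those near H3K4me3 peaks with DMSO numbered 14, and 27 over the whole gene (71.1%, against 50.1%) and 5 with peaks of at least 400 bp (13.2%, against 12.3%). With EPZ6438 they numbered 18, and 11 with peaks of at least 400 bp (28.9%, against 32.1%). The whole-gene window grows with the length of the gene, and gene length was not matched in these shares. Replicate numbers are shared by label only. The deviations of same-numbered libraries correlated across genes at 0.41, 0.08 and 0.06, and DMSO replicate 3 correlated best with EPZ6438 replicate 2 (0.33). With the replicate block, 1051 genes and the same 2 collagens passed, Lox passed (adjusted p = 0.0317, limma) and Sec24d (0.0583) and Sparc (0.0694) did not. Depth limits the collagens below the read minimum.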
